A study of Mus musculus with 8 samples.

Results

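Rab genes encode small GTPases of the Ras superfamily that mark membranes and set where vesicles form, move and fuse. They were taken here as every gene symbol of the form Rab plus a number, with at most 1 letter and 1 further digit, together with 5430435G22Rik, the deposited symbol of Rab7b. Of 59 such symbols, 45 had at least 10 counts in at least 2 of the 8 libraries and are described, out of 24369 symbols in all. By their best-known place of action 21 were assigned to endosomal routes, 19 to secretory routes and 5 to other or several routes. All 45 passed the low-count filter of the differential test, so none was lost there. Just inside the limit, Rab44 had 284 and 68 counts in its highest 2 libraries and Rab36 had 47 and 19. Just outside it were Rab38, with 196 counts in 1 library and 0 in the others, Rab27b, with 97 and 3 counts, and Rab3b, with 23 and 5. The other 11 symbols had 0 counts in every library.

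The libraries came from wild-type mice bearing tumours of MC38-EGFP, a mouse colon carcinoma line that carries enhanced green fluorescent protein. Dendritic cells of the conventional subsets cDC1 and cDC2 were sorted from the tumours by flow cytometry, and each subset was divided into cells with and without EGFP signal. This gave 4 groups of 2 libraries each, cDC1 without and with EGFP and cDC2 without and with it. The gates used to define the subsets are not described in the labels. The series is titled for sitagliptin as an antitumour drug acting on dendritic cells, but no drug, age or strain is given for these libraries, and the cell type label of all 8 reads colon cancer. The labels do not say that replicates came from separate animals, so p-values reflect only how far these libraries differ from each other, a spread that may be technical.

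A Rab protein cycles between a GDP-bound form, held in the cytosol by GDP dissociation inhibitor, and a GTP-bound form on a membrane, where it recruits effectors such as tethers and motors. Guanine nucleotide exchange factors switch it on, and GTPase-activating proteins switch it off. On the uptake side Rab5 proteins act at early endosomes, Rab4 and Rab11 proteins in recycling, and Rab7 in fusion with lysosomes. On the secretory side Rab1 and Rab2 proteins serve traffic between the endoplasmic reticulum and the Golgi, and Rab3, Rab8 and Rab27 proteins serve exocytosis. In dendritic cells these routes carry ingested antigen to degradation or to cross-presentation on MHC class I, the pathway for which cDC1 are best known.

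Levels are given in CPM, counts relative to the TMM-scaled library size. Values of single libraries always run in the same order: cDC1 before cDC2, within a subset the cells without EGFP before those with it, and replicate 1 before replicate 2. Library totals ranged from 17869441 to 22195681 counts. A floor of 3 counts in 1 library was 0.131 to 0.211 CPM, which covers counting error only. Between 34 and 41 of the 45 Rab genes had at least 10 counts in a given library, and 27 of them had that many in all 8. In bulk samples such as these, fewer cells of a type and less RNA per cell cannot be told apart.

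The labels were compared with markers of the cells the gates could hold. The 10 cDC1 markers summed to 3420 to 7668 CPM in the 4 cDC1 libraries and to 379 to 923 CPM in the 4 cDC2 libraries. In the cDC2 libraries Flt3 lay between 0 and 10.8 CPM and Zbtb46 between 0 and 1.04 CPM, both defining genes of conventional dendritic cells. Itgax, of the same list but shared with macrophages, lay between 51.9 and 82.6 CPM in them and between 8.05 and 83.03 CPM in cDC1. The 16 macrophage and monocyte genes summed to 28270.3 to 57479.8 CPM there, with C1qa at 979 to 2478 CPM. The 10 cDC2 markers summed to 915 to 963 CPM in these libraries and to 35.4 to 426 CPM in the cDC1 libraries, but members differed. Among EGFP-negative cells Sirpa averaged 254.2 CPM in cDC2 against 16.3 CPM in cDC1, and Itgam 365.8 against 19.3 CPM. Klf4, Cd209a, Irf4 and Clec4a4 were also higher in cDC2 there. Mgl2 (108.1 against 131.8 CPM), Clec10a (31.1 against 44.97 CPM) and Notch2 (11.5 against 33.9 CPM) were lower, and Cd7 was nearly equal. All 4 cDC2 libraries shared the low Flt3 and Zbtb46 and the high sum of macrophage and monocyte genes. The name cDC2 is therefore used below only as the label gives it. The same 16 genes summed to 2468, 3640.3, 523 and 13585 CPM in the cDC1 libraries, and 15 of the 16 were detected in each. Mertk was at 0 in all 4 cDC1 libraries, and C1qa lay between 0.481 and 4.21 CPM in them. The T and NK cell genes summed to 0 to 42.7 CPM per library, nearly all of it Cd8a in the cDC1 libraries, which can express that gene themselves, and the B and plasma cell genes to 0 to 13.9 CPM. Cd3e, Cd79a, Ms4a1 and Krt8 were at 0 in all 8. Replicates were least alike in EGFP-positive cDC1: the correlation of log2(CPM + 1) across genes was 0.629 there, 0.850 in cDC1 without EGFP, and 0.898 and 0.875 in cDC2 without and with it. Among the 28 Rab genes with a mean of at least 10 CPM, 13 differed by more than 2-fold between the EGFP-positive cDC1 replicates, against 8, 2 and 6 in the other groups in the same order.

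Per kilobase of exon, where levels of different genes can be compared, late endosomal and recycling Rab transcripts were the most abundant. Rab7, which drives fusion of late endosomes and phagosomes with lysosomes, averaged 134.9 CPM per kb over the 8 libraries. Rab11a, of the recycling endosome, averaged 128.8 CPM per kb, and their library values overlapped. Next came Rab1 (the deposited symbol of Rab1a), which serves transport from the endoplasmic reticulum to the Golgi, at 64.0 CPM per kb, the recycling gene Rab4b at 56.4 and the early endosomal gene Rab5c at 55.1. Rab7b, which acts in late endosomes and in retrieval to the trans-Golgi network, followed at 53.2, and the lowest of the 45 was Rab36. Exon lengths were taken from GENCODE M21 and may differ from those of the annotation the authors counted on.

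**Figure D1:**
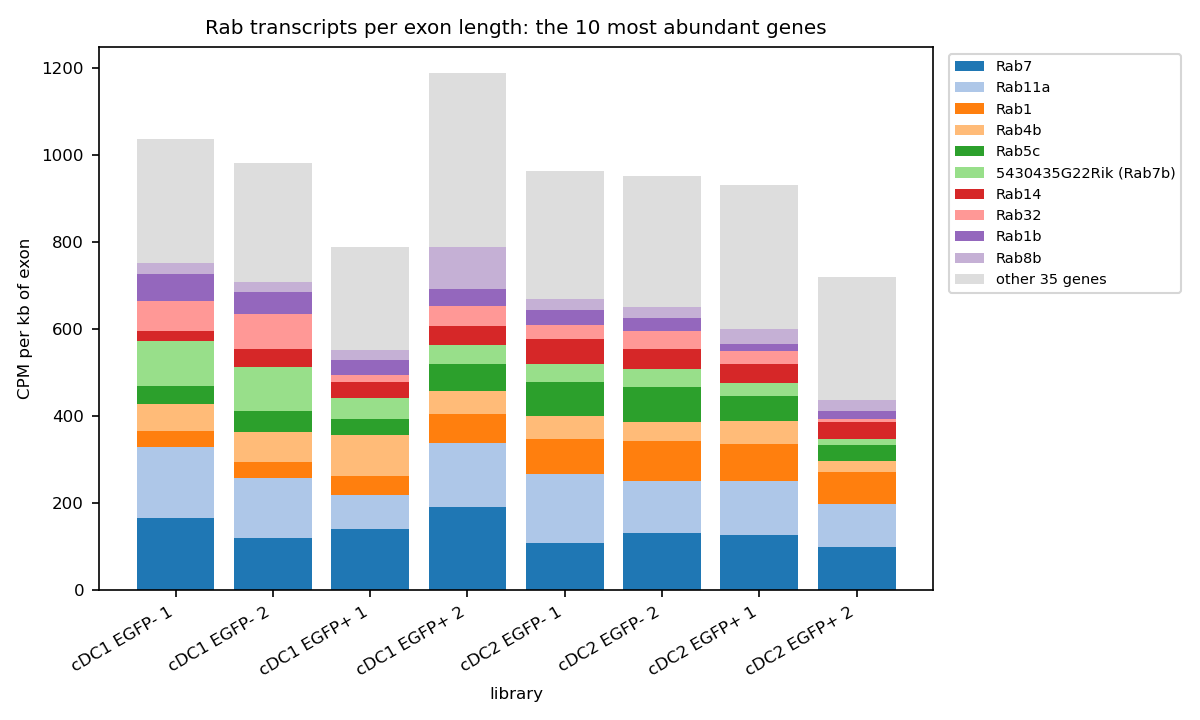
Stacked bars give CPM per kb of exon (y axis) in each of the 8 libraries (x axis) for the 10 most abundant Rab genes and for the other 35 together. Rab7 and Rab11a make up the lower segments in every library, and the total runs from 719 CPM per kb in EGFP-positive cDC2 replicate 2 to 1189 in EGFP-positive cDC1 replicate 2.

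Endosomal genes held 60.0% to 70.1% of all Rab CPM per kb in each library, secretory genes 26.8% to 37.9% and the other genes 1.41% to 6.85%. The highest secretory share, 37.9%, was that of EGFP-positive cDC1 replicate 2, the library with 456 CPM of Rab8b. Within families 1 paralog usually prevailed per kb. Rab4b made up at least 94.4% of the Rab4 pair and Rab6a at least 98.0% of the Rab6 pair in every library. Rab11a held 84.8% to 89.2% of the Rab11 pair in cDC1 and 90.7% to 93.7% in cDC2, and Rab5c held at least 69.3% of the Rab5 trio in every library. Reads from close paralogs could be divided between them in a way the sources used here do not state, so these shares are uncertain to that extent.

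**Figure D2:**
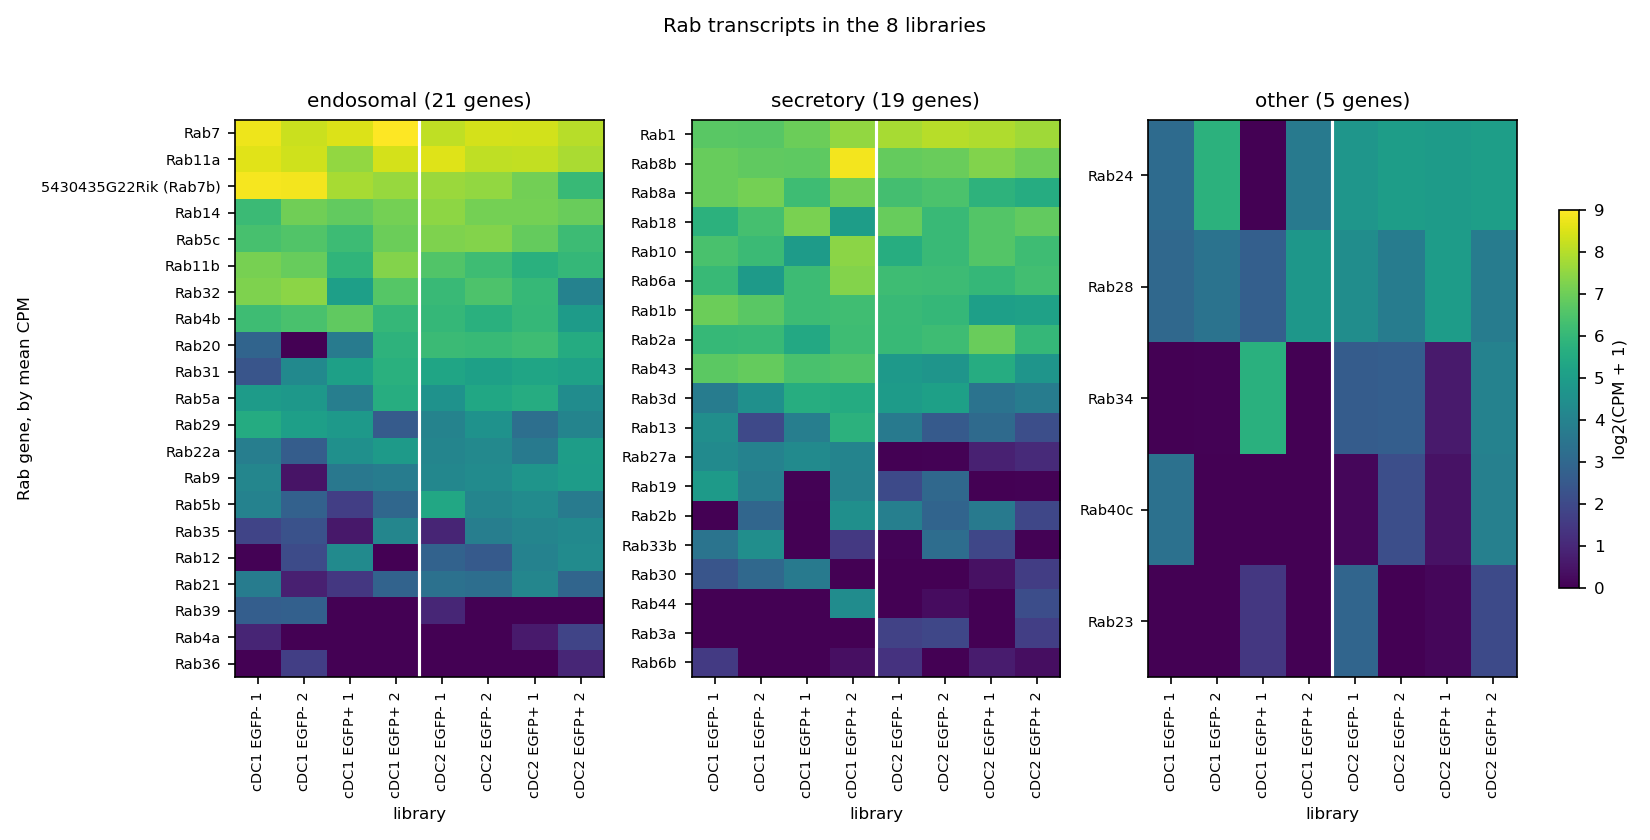
Each row is 1 of the 45 Rab genes, each column 1 of the 8 libraries, and colour gives log2(CPM + 1) from 0 to 9; panels separate 21 endosomal, 19 secretory and 5 other genes, and the white line divides cDC1 from cDC2. Rab7, Rab11a and Rab7b (5430435G22Rik) are the brightest endosomal rows, and Rab27a is dark in all 4 cDC2 columns.

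The first comparison asked which Rab transcripts differ between the subsets. Over both EGFP fractions, 1 of the 45 Rab genes passed the test, the secretory gene Rab43, which was higher in cDC1. The test was edgeR's quasi-likelihood test with Benjamini-Hochberg adjustment over 11394 genes at an adjusted p under 0.05, of which 1.32% were called in either direction, 0.816% as higher and 0.5% as lower. At an unadjusted p under 0.05 there were 8 Rab genes, 17.8% of the 45 against 13.5% of all genes tested. DESeq2 called 5 of the Rab genes and limma voom with quality weights 4. Without both EGFP-positive cDC1 libraries, which leaves a comparison of the subsets among EGFP-negative cells, edgeR called 3 (Rab1, Rab27a and Rab43). These are 11.1%, 8.89% and 6.67% of the 45, beside 10.4%, 7.42% and 3.55% of all genes under the same settings. The median log2 fold change of cDC1 over cDC2 was -0.15 over all 45, -0.30 over the endosomal and 0.47 over the secretory genes, and -0.28 over all genes tested. Fold changes lay above 0 for 9 of 21 endosomal, 12 of 19 secretory and 0 of 5 other Rab genes, against 41.1% of all genes.

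Rab43 acts at the Golgi and is known from mouse studies as a gene used by cDC1-type cells for cross-presentation of cell-associated antigen. It read 106.3, 114.9, 85.2, 90.7, 27.9, 24.6, 46.1 and 24.7 CPM. All 4 cDC1 libraries lay above all 4 cDC2 libraries, and EGFP-positive cDC2 replicate 1 stood apart from the other 3 of its subset. The means were 99.3 ± 13.7 CPM in cDC1 and 30.8 ± 10.3 CPM in cDC2 (SD, n = 4 libraries each). The log2 fold change was 1.69 ± 0.34 (SE), with an adjusted p of 0.0488 by edgeR. The call was lost when either EGFP-negative cDC1 library, either EGFP-negative cDC2 library or EGFP-positive cDC2 replicate 2 was left out (adjusted p of 0.151, 0.157, 0.190, 0.215 and 0.138), and over all alternatives the adjusted p ran from 9.44e-05 to 0.215. With every library kept, the edgeR call was also lost without robust estimation (adjusted p of 0.0672) and with the replicate block (0.0896). Within fractions the log2 fold change was 2.08 ± 0.43 among EGFP-negative cells (adjusted p = 0.135) and 1.31 ± 0.42 among EGFP-positive cells (adjusted p = 0.212), both by edgeR. The sums of macrophage genes and of cDC1 genes given above moved with the same groups, and their part in the difference was not tested.

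Rab43 lies on chromosome 6, from 87788853 to 87812164 on the minus strand of GRCm38. Of the further secretory genes whose subset levels did not overlap, none passed the adjusted test, and Rab1b is not shown here. Upstream sequence is shown for Rab43 and for 2 of those genes, Rab27a and Rab1. Each is the 250 bases before the annotated start from RefSeq for GRCm38.p6, at chr6:87812165-87812414 (minus strand, the most upstream of 4 starts), chr9:73044560-73044809 (plus strand, 1 of 2 starts) and chr11:20201162-20201411 (plus strand). They are written in the sense of the gene, with the GC box GGGCGG or its complement in capitals.
Rab43: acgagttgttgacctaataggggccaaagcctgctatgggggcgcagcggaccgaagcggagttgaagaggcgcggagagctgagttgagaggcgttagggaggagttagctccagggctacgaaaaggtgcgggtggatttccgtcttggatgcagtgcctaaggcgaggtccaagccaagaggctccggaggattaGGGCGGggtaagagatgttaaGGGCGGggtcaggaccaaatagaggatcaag
Rab27a: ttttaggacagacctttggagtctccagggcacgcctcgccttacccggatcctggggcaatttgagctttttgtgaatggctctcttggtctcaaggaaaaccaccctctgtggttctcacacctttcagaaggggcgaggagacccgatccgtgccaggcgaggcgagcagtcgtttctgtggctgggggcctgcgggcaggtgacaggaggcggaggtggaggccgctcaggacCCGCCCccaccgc
Rab1: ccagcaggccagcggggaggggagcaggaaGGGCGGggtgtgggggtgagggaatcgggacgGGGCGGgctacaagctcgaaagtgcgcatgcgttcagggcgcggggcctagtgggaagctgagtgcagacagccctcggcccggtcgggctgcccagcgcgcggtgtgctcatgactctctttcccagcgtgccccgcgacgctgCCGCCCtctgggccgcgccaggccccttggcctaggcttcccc
The windows held 2, 1 and 3 GC boxes. RefSeq windows were found for 38 of the 45 Rab genes, and not for Rab18, Rab2a, Rab30, Rab36, Rab44, Rab4a and Rab7b. Both strands of the 250 upstream bases were searched. At least 1 GC box was found in 33 of 47 Rab windows (70.2%), against 32.7% of all 32851 windows, and the median GC content was 62.8% against 52.4%. The sequence CCAAT was in 44.7% against 33.8%, the E-box CACGTG in 10.6% against 6.02%, and GAGGAAG (a PU.1 site) in 10.6% of both. The core of the interferon-stimulated response element was in 2.13% against 2.98%, and TGANTCA (AP-1) in 2.13% against 6.75%. These are counts of letters and not of bound sites. The Rab windows belong to genes kept by their counts, and the full set had no such limit, so the shares compare unlike sets.

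**Figure D3:**
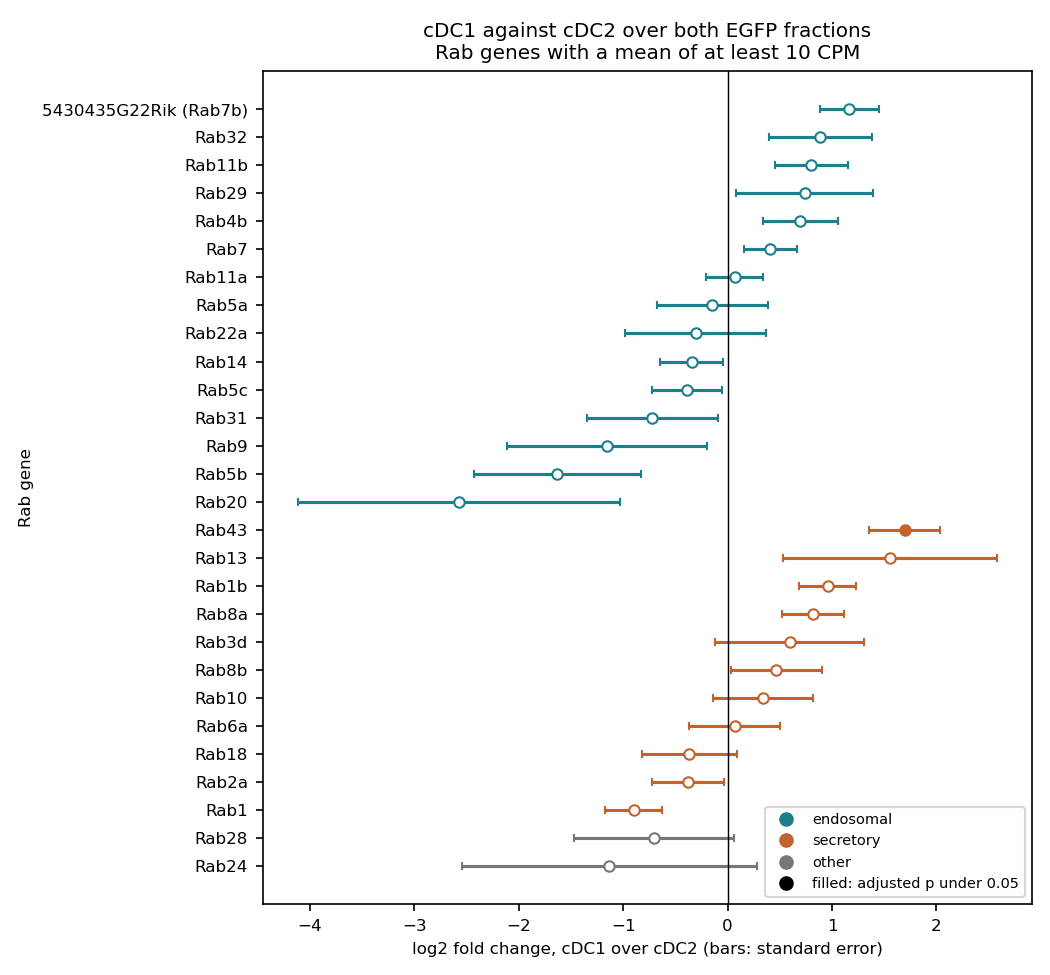
Log2 fold change of cDC1 over cDC2 (x axis, bars are the standard error) for the 28 Rab genes with a mean of at least 10 CPM, grouped by route. Rab43, the single filled point, was the gene past the threshold, at 1.69, and Rab20 had the lowest estimate, at -2.57 with a standard error of 1.54.

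Other Rab genes separated the subsets without passing the adjusted test. Rab1b, Rab27a, Rab43 and Rab4b were higher in every cDC1 than in every cDC2 library, 4 of 45 (8.89%) against 3.96% of all genes. Rab1 and Rab9 were lower in every cDC1 library, 2 of 45 (4.44%) against 8.56% of all genes. Of the 4 higher genes, Rab4b was endosomal and the others were secretory.

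Rab27a tethers lysosome-related and secretory organelles at the plasma membrane and in dendritic cells is known to bring the NADPH oxidase to phagosomes. It read 19.0, 14.8, 19.0 and 15.5 CPM in the cDC1 libraries and 0, 0.0445, 0.781 and 1.09 CPM in the cDC2 libraries. The cDC2 values rested on 0, 1, 15 and 22 counts, against 221 to 434 counts in cDC1, so the groups were far apart and both EGFP-negative cDC2 libraries were under the floor. The log2 fold change was 6.36 ± 1.72 with an adjusted p of 0.139 by edgeR. It was called by DESeq2 (adjusted p = 6.69e-06) and by voom (0.00619). By edgeR it was called without both EGFP-positive cDC1 libraries (0.0458), a setting that compares the subsets among EGFP-negative cells only. Rab27a fell outside the rule for naming genes and was chosen after its values were seen.

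The close paralogs Rab1 and Rab1b, which share the step from the endoplasmic reticulum to the Golgi, differed between the subsets in opposite directions. Rab1 read 102.7, 99.8, 125.6 and 184.5 CPM in cDC1 and 226.5, 257.8, 243.0 and 207.8 CPM in cDC2. The subsets did not overlap, and the highest cDC1 library was EGFP-positive replicate 2. Its log2 fold change was -0.90 ± 0.27 with an adjusted p of 0.195 by edgeR, 0.0505 by DESeq2 and 0.0262 by voom. Rab1b read 125.8, 103.0, 70.2 and 75.5 CPM in cDC1 and 68.2, 62.1, 33.0 and 34.8 CPM in cDC2. The order of the subsets was the opposite of that for Rab1, with EGFP-positive cDC1 just above EGFP-negative cDC2. Its log2 fold change was 0.96 ± 0.27 with an adjusted p of 0.162 by edgeR, 0.00688 by DESeq2 and 0.0792 by voom. Rab1 therefore held 36.7% to 63.4% of the pair per kb in the cDC1 libraries and 70.2% to 84.0% in the cDC2 libraries.

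**Figure D4:**
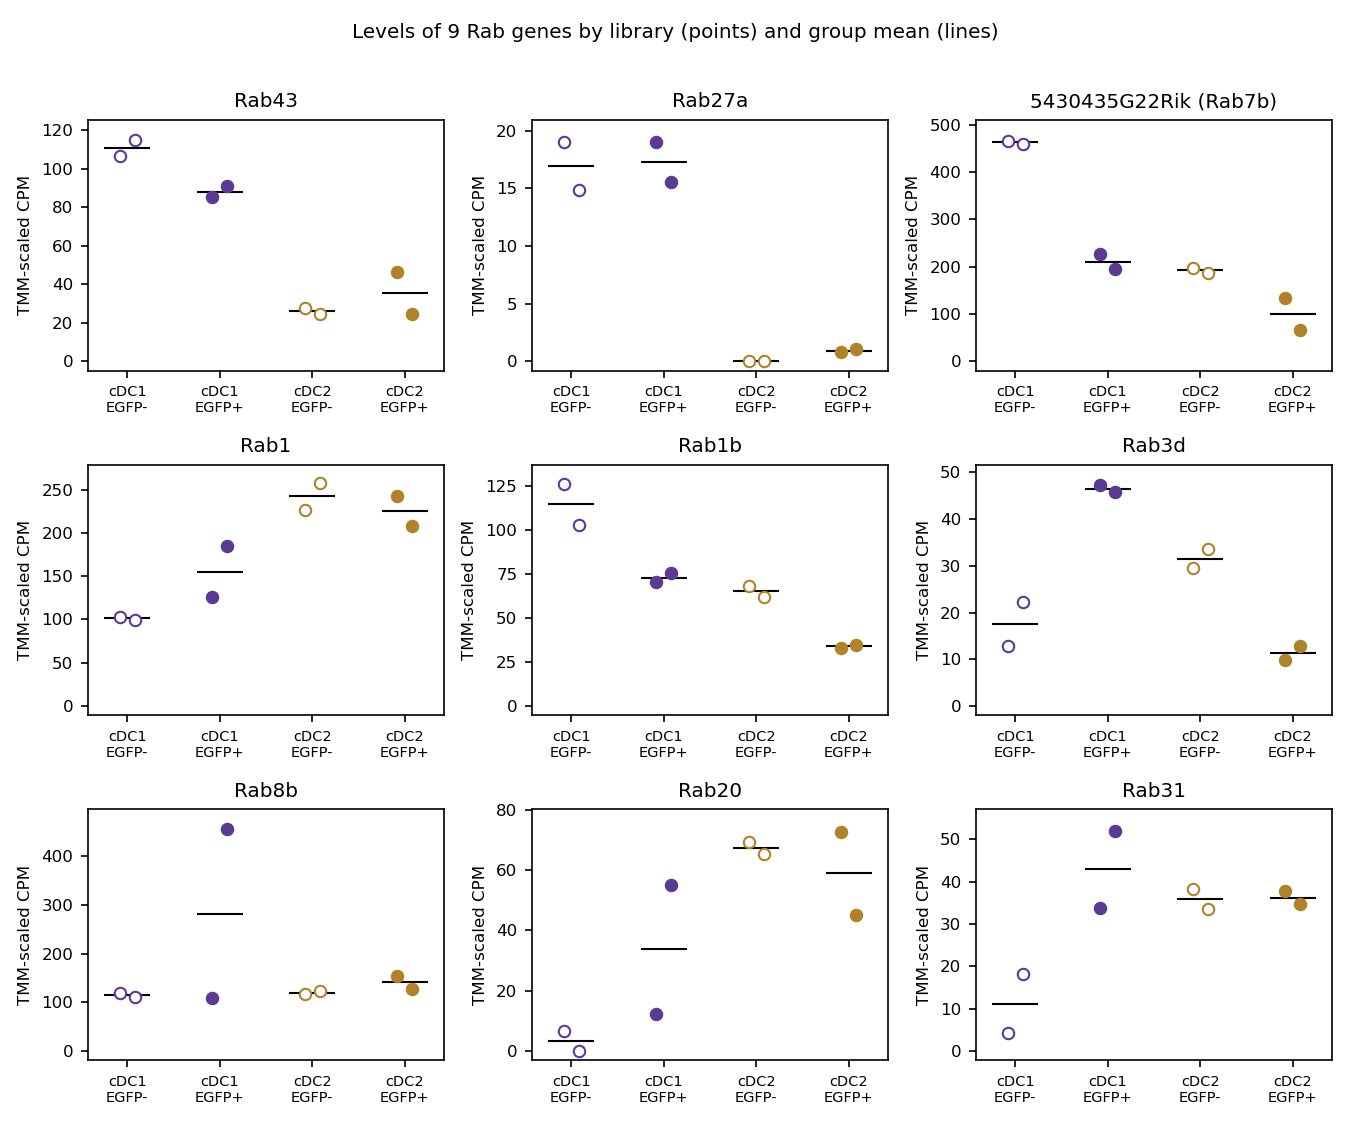
TMM-scaled CPM (y axis) of 9 Rab genes in the 4 groups (x axis); points are the 2 libraries of a group, open for EGFP-negative and filled for EGFP-positive, and lines are their means. Rab43 and Rab27a separate the subsets, Rab1 and Rab1b do so in opposite directions, and Rab8b has 1 point at 456 CPM in EGFP-positive cDC1.

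Among the remaining secretory genes, Rab8a, of the exocytic and ciliary route, read 118.4, 136.7, 72.7 and 131.4 CPM in cDC1 and 79.0, 85.5, 56.1 and 46.1 CPM in cDC2. The subsets overlapped through EGFP-positive cDC1 replicate 1, and the log2 fold change was 0.82 ± 0.29 (adjusted p = 0.271, edgeR). Rab13, of polarised surface delivery, read 20.8, 2.98, 13.3 and 54.5 CPM in cDC1 and 11.9, 4.90, 7.60 and 3.47 CPM in cDC2, and its estimate of 1.56 ± 1.02 (adjusted p = 0.596) had a wide error. Rab2a and Rab18 of the endoplasmic reticulum and Golgi, Rab6a of the Golgi, and Rab8b and Rab10 of surface delivery had log2 estimates from -0.38 to 0.47 and overlapped between the subsets. For Rab2a, EGFP-positive cDC2 replicate 1 stood apart at 120.9 CPM, against 62.6 to 72.3 CPM in the other cDC2 libraries.

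Of the endosomal genes, 0 of 21 passed the adjusted test in this comparison, and 2 did at an unadjusted p under 0.05, Rab7b and Rab11b. Rab7b, which in macrophages is known to limit signalling by endosomal and surface Toll-like receptors, read 466.1, 458.6, 225.7 and 194.3 CPM in cDC1 and 197.7, 187.0, 133.9 and 66.4 CPM in cDC2. EGFP-negative cDC1 stood well above the other groups, and the subsets overlapped narrowly, by 194.3 against 197.7 CPM. The log2 fold change was 1.17 ± 0.28 with an adjusted p of 0.0938 by edgeR, 0.00608 by DESeq2 and 0.0133 by voom. Rab7 itself read 432, 312, 364 and 499 CPM in cDC1 and 278, 342, 329.6 and 259.6 CPM in cDC2. Its subsets overlapped, and the log2 fold change was 0.41 ± 0.25 (adjusted p = 0.566, edgeR). Rab7b held 18.3% to 45.8% of the pair per kb in cDC1 and 12.8% to 29.1% in cDC2.

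The recycling gene Rab4b read 72.8, 84.1, 111.8 and 63.5 CPM in cDC1 and 62.4, 51.6, 62.2 and 29.6 CPM in cDC2, without overlap but with 63.5 against 62.4 CPM at the boundary. Its log2 fold change was 0.70 ± 0.36 (adjusted p = 0.438, edgeR). Rab11b, also of recycling endosomes, read 142.3, 118.7, 58.6 and 161.1 CPM in cDC1 and 93.6, 73.0, 50.9 and 62.3 CPM in cDC2. EGFP-positive cDC1 replicate 1 lay among the cDC2 values, and the estimate was 0.80 ± 0.35 (adjusted p = 0.359). Rab11a, of the same compartment, read 382.9, 322, 184.5 and 343.9 CPM in cDC1 and 373.7, 279.7, 288.5 and 231.2 CPM in cDC2, with an estimate of 0.07 ± 0.28. Rab14, which links endosomes and the Golgi, read 70.1, 132, 112.8 and 136.7 CPM in cDC1 and 176.7, 137.6, 136.7 and 120.9 CPM in cDC2, with an estimate of -0.34 ± 0.30. Both genes overlapped between the subsets.

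The 7 genes placed at early endosomes and phagosomes had log2 estimates of cDC1 over cDC2 from -2.57 to -0.15, beside the median of -0.28 over all genes, and none was called. Rab20, known for its place on maturing phagosomes, read 6.54, 0, 12.3 and 55.1 CPM in cDC1 and 69.3, 65.4, 72.7 and 44.97 CPM in cDC2. The overlap came from EGFP-positive cDC1 replicate 2, the cDC1 library with the highest sum of the 16 macrophage and monocyte genes. Members of that list differed, with Lyz2 at 8773 CPM in this library but Adgre1 and Pf4 at 0.421 CPM each. The part of these genes here was not tested. The log2 fold change was -2.57 ± 1.54 (adjusted p = 0.555, edgeR). Rab5b read 14.8, 5.97, 2.14 and 7.02 CPM in cDC1 and 41.1, 16.2, 19.4 and 12.3 CPM in cDC2, so that 1 library on each side overlapped, and the estimate was -1.63 ± 0.80 (adjusted p = 0.408). Rab5c, the most abundant Rab5 gene per kb, read 81.9, 92.8, 70.2 and 124.2 CPM in cDC1 and 153.3, 160.7, 115 and 70.2 CPM in cDC2. Its EGFP-negative libraries were apart and its EGFP-positive ones were not, with an estimate of -0.39 ± 0.33. Rab9, of the return route from late endosomes to the Golgi, read 16.7, 0.373, 11.1 and 12.6 CPM in cDC1 and 16.9, 19.5, 25.1 and 30.1 CPM in cDC2. Its subsets met at 16.7 and 16.9 CPM, the cDC1 replicates without EGFP differed widely, and the log2 fold change was -1.15 ± 0.96 (adjusted p = 0.716).

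Within fractions, edgeR called 0 of 45 Rab genes between cDC1 and cDC2 among EGFP-negative cells, where it called 0.36% of all genes (0.114% higher and 0.246% lower), and 6 were at an unadjusted p under 0.05 (9.58% of all genes). Estimates lay above 0 for 22 of 45, against 47% of all genes. DESeq2 called 5 and voom 4 in that comparison, where they called 7.97% and 4.13% of all genes. With EGFP-positive cDC1 replicate 1 or 2 left out, edgeR called 3 (Rab1, Rab27a and Rab43), beside 3.75% and 3.31% of all genes. Among EGFP-positive cells edgeR called 0 of 45, against 0.228% of all genes (0.114% in each direction), with 7 at an unadjusted p under 0.05 (15.9% of all genes), while DESeq2 called 5 (14.8% of all genes) and voom 0 (0.0965%). Estimates there lay above 0 for 24 of 45, against 42.2% of all genes. The count became 3 without EGFP-positive cDC1 replicate 1 (Rab11b, Rab19 and Rab8b) and 1 without replicate 2 (Rab24), where 6.83% and 10.2% of all genes were called. Leaving out a library leaves its group with 1, which is then assumed to vary as the other groups do. These 2 comparisons share all their libraries with the one over both fractions and are not separate evidence.

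The second comparison asked whether Rab transcripts differ between cells with and without tumour-derived fluorescence. In cDC1, edgeR called 0 of 45 Rab genes and 0% of all genes, with 5 Rab genes at an unadjusted p under 0.05, against 12.7% of all genes. DESeq2 called 3 (Rab34, Rab3d and Rab44), 6.67% of the 45 beside 12.3% of all genes, and voom 0. In cDC2, edgeR called 0 of 45 and 0% of all genes, with 5 at an unadjusted p under 0.05, against 2.63% of all genes, and DESeq2 and voom each called 0 (1.03% and 0.0176% of all genes). In cDC1 the 2 EGFP-positive libraries lay above the EGFP-negative ones for 6 Rab genes (11.5% of all genes) and below for 7 (24%). In cDC2 they lay above for 8 (22.6%) and below for 10 (19.2%). The median log2 fold change over the 45 was 0.10 in cDC1 and -0.07 in cDC2, against -0.04 and 0.08 over all genes. Estimates lay above 0 for 25 of 45 in cDC1 (44.9% of all genes) and for 21 of 45 in cDC2 (53.1%).

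The EGFP comparisons in cDC1 and cDC2 use different libraries, so they can be set side by side. The estimates had the same sign for 26 of the 45 Rab genes. The share with the same sign among all genes was not taken, so this count stands without a background. Rab7b, Rab1b and Rab32 were lower in both EGFP-positive libraries of both subsets, 3 of 45 (6.67%) against 4.43% of all genes. For 0 of 45 were both EGFP-positive libraries higher in both subsets, against 2.27% of all genes, and for 0 of 45 were they lower in cDC1 and higher in cDC2, against 6.21%.

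Rab7b, with the values given above, had a log2 fold change of EGFP-positive over EGFP-negative of -1.14 ± 0.38 in cDC1 (adjusted p = 0.301) and -0.94 ± 0.37 in cDC2 (adjusted p = 1). The sum of cDC1 markers moved with the EGFP fraction in cDC1 too, from 7668 and 6553 CPM without EGFP to 3420 and 3994 CPM with it, and its part in these differences was not tested. For Rab1b the estimates were -0.65 ± 0.34 and -0.94 ± 0.34 (adjusted p = 0.419 and 1). Rab32, which serves lysosome-related organelles and melanosomes, read 150.6 and 170.4 CPM in EGFP-negative and 33.0 and 98.8 CPM in EGFP-positive cDC1, and 68.1 and 89.0 against 63.7 and 14.8 CPM in cDC2. Its EGFP-positive replicates differed from each other by more than 2-fold in both subsets, and the estimates were -1.29 ± 0.75 and -1.001 ± 0.742 (adjusted p = 0.453 and 1, edgeR).

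**Figure D5:**
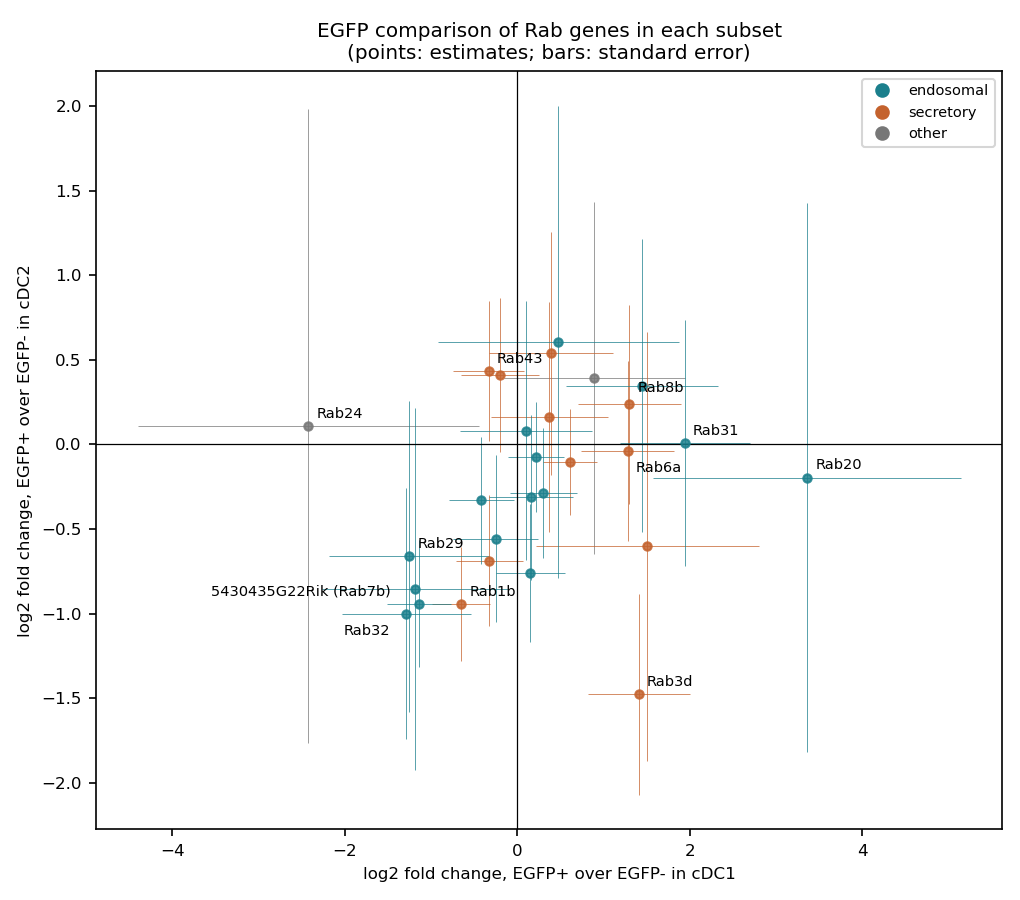
Log2 fold change of EGFP-positive over EGFP-negative in cDC1 (x axis) and in cDC2 (y axis) for the 28 Rab genes with a mean of at least 10 CPM, with standard errors as bars and colour by route. Rab7b, Rab1b and Rab32 lie in the lower left, and Rab3d lies at 1.41 in cDC1 and -1.48 in cDC2.

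Rab3d, which acts on secretory granules, was the single Rab gene whose EGFP-positive libraries lay above the EGFP-negative ones in cDC1 and below them in cDC2, a pattern of 2.68% of all genes. It read 12.8 and 22.2 CPM in EGFP-negative and 47.3 and 45.7 CPM in EGFP-positive cDC1. In cDC2 it read 29.5 and 33.5 CPM in EGFP-negative and 9.79 and 12.8 CPM in EGFP-positive cells. Replicates of a group lay closer to each other than to the other EGFP fraction in both subsets. The log2 fold changes were 1.41 ± 0.59 (adjusted p = 0.385) and -1.48 ± 0.59 (adjusted p = 1). The difference between them, the interaction of subset and EGFP, was 2.89 ± 0.84 on the log2 scale, with an unadjusted p of 0.00975 and an adjusted p of 0.397 by edgeR. DESeq2 gave an adjusted p of 0.00392, and over all alternatives it ran from 0.00392 to 0.986.

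Over all 45 Rab genes edgeR called 0 in the interaction, as it called 0% of all genes, and 3 had an unadjusted p under 0.05, against 10.4% of all genes. DESeq2 called 2 (Rab3d and Rab44), 4.44% of the 45 beside 7.09% of all genes, and voom 0. Estimates lay above 0 for 26 of 45, against 45.8% of all genes. Rab44, a large Rab known from mast cell granules, was at 0 in 3 of the 4 cDC1 libraries and at 19.9 CPM in EGFP-positive replicate 2. The interaction uses the same libraries as the EGFP comparisons.

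Some Rab genes were higher in EGFP-positive cDC1 without a difference of that size in cDC2. Rab31, which moves cargo between the Golgi and endosomes, read 4.21 and 18.1 CPM in EGFP-negative and 33.8 and 52.0 CPM in EGFP-positive cDC1, and 33.5 to 38.4 CPM in all 4 cDC2 libraries. EGFP-negative cDC1 was the low group, and the estimate in cDC1 was 1.94 ± 0.75 (adjusted p = 0.355), against 0.01 ± 0.73 in cDC2. Rab20 had 3.36 ± 1.79 in cDC1 (adjusted p = 0.425) and -0.20 ± 1.62 in cDC2. Rab6a read 65.2 and 29.1 CPM in EGFP-negative and 71.2 and 158.1 CPM in EGFP-positive cDC1, an estimate of 1.28 ± 0.54 (adjusted p = 0.385). The interactions were 1.93 ± 1.04, 3.56 ± 2.37 and 1.32 ± 0.75 for Rab31, Rab20 and Rab6a, with adjusted p of 0.539, 0.639 and 0.567 by edgeR, so no difference between the subsets was shown.

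Single libraries set several EGFP values in cDC1. EGFP-positive cDC1 replicate 2 held the highest level of 10 of the 45 Rab genes, against 3 to 7 in each other library. The same count was not taken over all genes, so it is not read as a trait of Rab genes. The TMM factor was 0.798 in this library and 1.14 in replicate 1 of its group. A lower factor raises all CPM of a library, and its part was not tested. This library had 456 CPM of Rab8b where the other cDC1 libraries had 108 to 119. It had 54.5 CPM of Rab13 and 172.4 CPM of Rab10 where replicate 1 had 13.3 and 29.7. The same library had 5498 CPM of Ccr7, the receptor of migratory mature dendritic cells, where the other cDC1 libraries had 70.8 to 368. It also had 8773 CPM of Lyz2 and 1362 CPM of Arg1, but Adgre1 of the same macrophage list was at 0.421 CPM and Mertk at 0. Without replicate 1 of that group Rab8b was called in the EGFP comparison in cDC1, and without replicate 2 Rab24 and Rab34 were. Under these settings 6.15% and 8.41% of all genes were called, and the group held 1 library, with its spread taken from the other groups. Rab34, which acts in macropinocytosis and lysosome positioning, read 0, 0.0466, 51.0 and 0 CPM in cDC1 and 5.17, 5.52, 0.573 and 15.0 CPM in cDC2. Its highest 2 libraries, EGFP-positive cDC1 replicate 1 and EGFP-positive cDC2 replicate 2, also had the highest sums of the 10 tumour epithelium and stroma genes, 808 and 175 CPM against 2.80 to 52.4 in the rest, with Sparc at 674 and 126 CPM, Epcam and Krt8 at 0, and 4 and 5 of the 10 genes at 0. Rab34 was chosen after its values were seen, and whether these cells account for it was not tested. Rab24, linked to autophagy, read 7.90, 54.6, 0 and 11.7 CPM in cDC1 and 25.6 to 31.7 CPM in cDC2, so its spread lay among the cDC1 libraries. In cDC2, Rab27a had 15 and 22 counts with EGFP against 0 and 1 without it.

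The genes that regulate and read out Rab proteins were taken as 6 lists. Over both fractions edgeR called 1.32% of all genes, DESeq2 10.4% and voom 7.42%. Of the exchange factors 35 of 38 were tested, and 1 was lower in cDC1 in that comparison (2 with DESeq2 and 3 with voom). This was Rin2, an exchange factor for Rab5, at 0, 0, 0.0438 and 0.0702 CPM in cDC1 and 74.7, 39.0, 70.7 and 21.3 CPM in cDC2. The 2 subsets did not come near each other. Among EGFP-negative cells, with 0 counts in both cDC1 libraries, Rin2 was at least 813-fold lower in cDC1 against a floor of 3 counts over the group. Its adjusted p there was 0.0323 by edgeR, and DESeq2 called it but voom did not. Among EGFP-positive cells only DESeq2 called Rin2 (adjusted p = 0.0538, edgeR). Of the GTPase-activating proteins 39 of 40 were tested, and 1 was higher in cDC1, Tbc1d8, a TBC-domain protein. DESeq2 called 2 of that list higher and 3 lower, and voom 2 higher and 1 lower. Tbc1d8 read 106.2, 71.9, 62.4 and 132.9 CPM in cDC1 and 1.24, 1.38, 5.31 and 2.03 CPM in cDC2, again without overlap. Its log2 fold change was 5.40 ± 0.58 (adjusted p = 0.00251, edgeR). Among EGFP-negative cells edgeR, DESeq2 and voom each called Tbc1d8. Among EGFP-positive cells only DESeq2 did (adjusted p = 0.0579, edgeR). Calls on these lists were not read with single libraries left out. In the EGFP comparisons and the interaction edgeR called 0 of either list and voom 0. DESeq2 called 1 to 2 exchange factors and 0 to 3 GTPase-activating proteins there. Of all genes DESeq2 called 12.3% for EGFP in cDC1, 1.03% for EGFP in cDC2 and 7.09% for the interaction. Unadjusted p under 0.05 occurred in the same comparisons for 0 to 2 exchange factors and 1 to 3 GTPase-activating proteins. The shares of all genes were 12.7%, 2.63% and 10.4%.

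For the other lists edgeR called 0 genes in all 6 comparisons. These were 7 of 7 genes of prenylation and GDP dissociation inhibition, 22 of 25 endosomal effectors, 10 of 10 genes of the HOPS and CORVET tethers, which bind Rab7 and Rab5, and 12 of 23 secretory effectors. Over both fractions 1, 3, 0 and 1 of them had an unadjusted p under 0.05, against 13.5% of all genes. In the same comparison DESeq2 called 0, 1, 1 and 0 of them and voom 0, 1, 0 and 0, beside 10.4% and 7.42% of all genes. The effector was Rab11fip5 with both tools. In the EGFP comparison in cDC1 the unadjusted counts were 0, 2, 1 and 1, against 12.7% of all genes. DESeq2 called 0, 1, 1 and 1 there, beside 12.3% of all genes, and voom 0. In cDC2 the unadjusted counts and both tools gave 0. Gdi2, which extracts Rab proteins from membranes, read 1211, 965, 424 and 834 CPM in cDC1 and 563, 646, 477 and 320.5 CPM in cDC2, an estimate of 0.75 ± 0.29 (adjusted p = 0.294, edgeR). Eea1, the Rab5 effector that tethers early endosomes, read 18.04, 4.66, 17.5 and 16.7 CPM in cDC1 and 28.7, 36.4, 51.0 and 35.0 CPM in cDC2. Every cDC2 library exceeded every cDC1 library for Eea1, with a log2 fold change of -1.42 ± 0.54 and an adjusted p of 0.297 by edgeR. Mical1, a Rab-binding oxidase of actin, had 1.55 ± 0.55 (adjusted p = 0.264). In the EGFP comparison in cDC1, Unc13d, the Rab27a effector that primes granules for fusion, read 6.45 and 7.36 CPM without EGFP and 59.3 and 25.0 CPM with it (log2 fold change 2.61 ± 0.97, adjusted p = 0.339).

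Several Rab values carry a limit of counting. The exons of Rab24, Rab2b, Rab3a, Rab5a and Rab6a overlap those of Prelid1, Tox4, Mpv17l2, Pp2d1 and Mrpl48 on the opposite strand, and the use of strand is not given in the sources used here, so reads of these pairs cannot be told apart. Of the 45 genes 17 had a mean under 10 CPM, and 17 had 0 counts in at least 1 library, including Rab19, Rab30, Rab39 and Rab3a. Rab39, of late endosomes, read 5.42 and 5.78 CPM in EGFP-negative cDC1, 0.9701 CPM in EGFP-negative cDC2 replicate 1 and 0 in the other 5 libraries, and Rab3a, a synaptic vesicle Rab, was at 0 in all 4 cDC1 libraries and at 0 to 2.76 CPM in cDC2. Rab19, a Golgi Rab, was at 29.2, 13.5, 0.0438 and 15.4 CPM in cDC1 and 3.02, 7.26, 0 and 0.0495 CPM in cDC2. Rab4a, Rab6b, Rab23, Rab36 and Rab40c were under 15 CPM in every library and at 0 in at least 1. Rab12, Rab21, Rab2b, Rab33b and Rab35 reached at most 21.5 CPM, and Rab22a and Rab28 at most 30.9 CPM. Rab5a, at 13.4 to 47.6 CPM, and Rab29, of the trans-Golgi network and lysosomes, at 5.05 to 45.2 CPM, overlapped between the subsets. These low genes were chosen after their values were seen and are given as levels.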

How the data were processed

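RNA of 8 sorted populations was sequenced, and the authors deposited 1 table of raw read counts for 24369 gene symbols, whose 8 columns were matched to samples by name. Per the labels' protocols, cDNA was made by a published full-length low-input method and libraries were made with a KAPA kit. Trimmomatic 0.39, STAR 2.7.5c, Cufflinks 2.2.1 and the mm10 build appear in the submitters' processing notes, but no source used here names the counter, the annotation or whether strand was used. Totals were 17869441 to 22195681 counts per library, and Rn45s took 19.4% to 35.6% of them.

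The test was edgeR 4.0.16 under R 4.3.3 (low-count filter filterByExpr, TMM, robust glmQLFit, glmQLFTest, Benjamini-Hochberg over 11394 genes, threshold 0.05). The comparison over both EGFP fractions used subset and EGFP as additive terms, and the other 5 used 1 mean per group. A standard error is the absolute log2 fold change over the root of its F statistic. The common dispersion was 1.28. Alternatives were DESeq2 1.42.0, voom in limma 3.58.1, RLE scaling, other filters, other sets of libraries, removal of Rn45s, a replicate block and leaving out each library. Steps were run on simulated data at the dispersion of these data and at a lower one. A pass limit, on the fold change recovered, was set only at the lower dispersion. It therefore does not show how the test performs at the noise of these data.

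Named genes were Rab genes past the threshold, those with a mean of at least 50 CPM, and the 3 highest and 3 lowest fold changes per comparison among those with at least 10 CPM. From each regulator list they were genes past the threshold, otherwise the 2 of smallest p. Members and lists were chosen with earlier results of these data known. Rab genes at an unadjusted p under 0.05 and those said so in the text were added after their values were seen. Symbols were matched through RefSeq and GENCODE M21. Exons, strands and overlaps were read from GENCODE M21, gene coordinates from RefSeq, and promoters from RefSeq for GRCm38.p6.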

Additional observations from a re-analysis of the deposited data

Results flagged for a closer look

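Among the 25 named Rab genes, the 4 libraries of each subset were searched for 1 library far from the other 3 by Dixon's criterion at its 95% level. Of 50 such groups 3 stood out, and chance marks about 1 in 20 groups. Rab8b in cDC1 was highest in EGFP-positive replicate 2, at 456 CPM against 119 CPM in the next library. Rab43 in cDC2 was highest in EGFP-positive replicate 1, at 46.1 CPM against 27.9 CPM in the next library, and without that library its log2 fold change of cDC1 over cDC2 was 2.02. Rab2a in cDC2 was highest in the same library, at 120.9 CPM against 72.3 CPM in the next.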

How the results depend on the processing

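The number of Rab genes called depended on the tool and on single libraries. Over both EGFP fractions it was 1, and 5 with DESeq2, 4 with voom, 3 without both EGFP-positive cDC1 libraries, 0 without robust estimation, 0 with the replicate block and 0 to 1 when 1 library was left out. Among EGFP-negative cells it was 0, and 5 with DESeq2, 4 with voom, 2 with only the libraries compared, 3 without both EGFP-positive cDC1 libraries and 0 to 3 when 1 library was left out. Among EGFP-positive cells it was 0, and 5 with DESeq2 and 0 to 3 when 1 library was left out. For EGFP in cDC1 it was 0, and 3 with DESeq2 and 0 to 2 when 1 library was left out. For the interaction it was 0, and 2 with DESeq2 and 0 to 1 when 1 library was left out, and for EGFP in cDC2 it was 0 under every setting run. The share of all genes called moved too. Over both EGFP fractions it was 1.32%, and 10.4% with DESeq2, 7.42% with voom, 0.869% without robust estimation and 0.72% with the replicate block. Among EGFP-negative cells it was 0.36%, and 7.97% with DESeq2, 4.13% with voom and 2.89% with only the libraries compared. DESeq2 called 14.8% among EGFP-positive cells, 12.3% for EGFP in cDC1 and 7.09% for the interaction. The cause of these changes was not tested, save that without both EGFP-positive cDC1 libraries the comparison over both fractions becomes that among EGFP-negative cells. Fold changes were recomputed for 57 gene comparisons of Rab genes, picked for extreme estimates, a call or an unadjusted p under 0.05 by edgeR. Large estimates rarely change sign, so the count of sign changes does not measure stability over all Rab genes. Of the 989 recomputed values 3 changed sign. Without EGFP-positive cDC2 replicate 1 these were EGFP in cDC2 for Rab43 (-0.19) and the interaction for Rab2a (0.084). Without EGFP-positive cDC1 replicate 1 it was EGFP in cDC1 for Rab34 (-2.22). Leaving out single libraries gave ranges of -0.19 to 0.81, -1.05 to 0.084 and -2.22 to 11.99 for these. Over all genes the subset comparison called 150, and 1160 with DESeq2, 846 with voom, 236 without the low-count filter, 99 without robust estimation and 82 with the replicate block, and 62% of calls were higher in cDC1 against 34.1% with DESeq2. RLE scaling moved the median log2 fold change of all genes from -0.30 to -0.20 among EGFP-positive cells and from -0.20 to -0.06 for the interaction. Same-numbered libraries share a code in their titles whose meaning is not stated. The correlations of their deviations from the group means were -0.224 to 0.0408. With 1 replicate difference per group, these cannot show whether same-numbered libraries share a source. The main test did not take the numbers as pairs, and a replicate block was run as an alternative. With the replicate block Rab43 had an adjusted p of 0.0896. A crossed block among EGFP-positive cells, added after the data were seen, called 0 Rab genes and 7 genes in all. Each group held 2 libraries, and the common dispersion was 1.28.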
